A study of Mus musculus with 516 samples.

Results

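The expression of 10 interferon-induced and class I antigen presentation genes was followed cell by cell in mouse dorsal root ganglia, which hold the cell bodies of sensory neurons beside the spinal cord. They were taken by name from the count table and make up 10 of its 11251 genes: Ifit1, Ifit3, Irf1, Ifitm3, Iigp1, Tgtp1, Tgtp2, Psmb8, H2-K1 and B2m. Each of the 516 samples is the RNA sequencing library of 1 cell. The design crosses 2 mouse strains with 2 states, and gives 4 groups: cultured CAST/Ei, naive CAST/Ei, cultured C57BL/6 and naive C57BL/6. Of 273 CAST/Ei cells, 99 (36.3%) were cultured and the rest naive, and of 243 C57BL/6 cells 45.7% were cultured and the rest naive. Cultured cells, labelled injured, went through in vitro axotomy: dissociation cut their axons, after which they grew at high density on uncoated plastic for 48 h. Ara-C, which stops cell division, was added at 24 h, and trypsin was used to lift the cells. Naive cells were captured straight after dissociation. All cells of both states passed a 35 µm mesh and a Percoll gradient before capture on a microfluidic chip, so naive cells too had been dissociated. The labels name no genotype beyond the strain, and no animal, age, culture dish or chip for any cell. A group therefore counts as 1 sample here, cells are not replicates of a condition, and no p-value is given for any difference between groups.

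Interferons are secreted proteins that warn cells of infection or damage. They bind receptors on the cell surface, which act through kinases of the Jak family on transcription factors, and these switch on a large set of genes by way of short DNA elements near the gene starts: the interferon-stimulated response element (ISRE), used mostly after type I interferon, and the gamma-activated site (GAS), used after interferon gamma. Ifit1 and Ifit3 encode proteins that hold back translation of foreign RNA, Ifitm3 a membrane protein that hinders entry of viruses, and Irf1 a transcription factor that is itself induced and acts on further genes of the set. Iigp1, Tgtp1 and Tgtp2 belong to the immunity-related GTPases, which in mouse attack the vacuoles in which intracellular parasites live. Psmb8 is a catalytic subunit of the immunoproteasome, the proteasome form that cuts proteins for presentation, H2-K1 is a class I heavy chain, and B2m is the light chain shared by all class I molecules. Resting neurons are known for low class I levels, which interferon can raise.

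The promoter sequences are shown first because the genes are grouped by the interferon elements that they carry. The windows come from RefSeq on GRCm38.p6, run from 250 bases before to 50 bases after a gene's start, and were found for 9 of the 10 genes. No window was used here for Iigp1. Both strands were searched for the core of the ISRE (GAAA, any 2 bases, then GAAA again), for the shorter IRF core AANNGAAA, which overlaps it, and for the GAS written TTCNNNGAA. Capitals mark the ISRE core in the first 5 lines, the IRF core in H2-K1 and the GAS in Irf1 and Psmb8, and positions count from the gene's start.
Ifit1, chr19:34640765-34640833, plus strand: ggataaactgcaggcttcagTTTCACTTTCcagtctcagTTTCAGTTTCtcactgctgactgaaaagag
Ifit3, chr19:34583353-34583436, plus strand: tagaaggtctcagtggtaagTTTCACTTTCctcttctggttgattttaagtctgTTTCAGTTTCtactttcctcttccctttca
Tgtp1, chr11:48992294-48992343, minus strand: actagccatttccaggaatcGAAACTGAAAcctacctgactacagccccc
Tgtp2, chr11:49064253-49064302, minus strand: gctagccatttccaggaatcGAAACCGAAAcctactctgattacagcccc
B2m, chr2:122147528-122147577, plus strand: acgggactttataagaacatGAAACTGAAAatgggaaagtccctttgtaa
H2-K1, chr17:34000410-34000457, minus strand: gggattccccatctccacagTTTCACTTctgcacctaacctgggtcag
Irf1, chr11:53769904-53769952, plus strand: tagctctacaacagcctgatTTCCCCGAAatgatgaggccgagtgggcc
Psmb8, chr17:34198078-34198126, plus strand: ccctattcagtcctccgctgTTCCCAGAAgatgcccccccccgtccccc

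The ISRE core was present in 6 of the 9 windows, against 3.44% of all 32851 RefSeq windows of the same length. In 5 of them it lay before the start, and in the sixth, Ifitm3, it lay after the start. Ifit1 and Ifit3 each carried 2 copies, written on the opposite strand, so that they read as TTTCACTTTC and TTTCAGTTTC above. The IRF core was found in 7 of the 9 windows, against 23.92% of all windows, and the GAS in 5 of the 9, against 8.3%. Every ISRE core contains an IRF core, so these 7 are the 6 windows above and that of H2-K1. The GAS lay before the start in 4 of the 5, and after it in Ifitm3. Tgtp1 and Tgtp2, which share most of their sequence, are counted separately for each motif. Irf1 and Psmb8 held a GAS without an ISRE core, Ifit1, Ifit3 and B2m an ISRE core without a GAS, and Tgtp1, Tgtp2 and Ifitm3 both. H2-K1 held the IRF core alone. A match is a description of letters in this window and not a shown binding site.

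Some of the genes have near copies, which bears on how reads could be assigned. Tgtp1 at chr11:48985327-48994172 and Tgtp2 at chr11:49057194-49064206, both on the minus strand of the GENCODE M21 annotation, share most of their sequence: 84.8% of the 75-base stretches of the Tgtp1 transcript occur in Tgtp2, and 85.2% the other way round. The split of reads between Tgtp1 and Tgtp2 is therefore uncertain, and they are counted together as 1 unit below. Ifit3 at chr19:34583531-34588731 shares 41.1% of its stretches with Ifit3b, which the table holds under its older symbol, I830012O16Rik, so the split of reads between Ifit3 and Ifit3b is uncertain too. H2-K1 at chr17:33996017-34000347 shares 1.6% with H2-D1, and Ifitm3 at chr7:141009586-141010770 shares 0% with Ifitm2.

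The cells held 13932 to 2978345 reads each, 496696577 in all, with group medians of 1111710 reads in cultured CAST/Ei cells, 960205 in naive CAST/Ei cells, 729522 in cultured C57BL/6 cells and 696013 in naive C57BL/6 cells. Levels are given as CPM, the reads of a gene scaled to 1000000 reads of a cell or of a group's summed cells, with exact Poisson intervals at the 95% level that cover counting error only. Molecular identifiers were not used, and PCR copies of 1 molecule therefore add to the reads. In a sum over cells, more cells of a type and more RNA per cell cannot be told apart. Clustering of the cells without the 10 genes and 89 other listed interferon and presentation genes gave 15 clusters. Ifit3b and Ifi27, which the table holds under the older symbols I830012O16Rik and Ifi27l1, were not matched and so not left out, and the 34 cells of cluster 6 below were the same 34 when both were left out. Neuron-like clusters, named from neuron markers, held 63.6% of cultured and 89.7% of naive CAST/Ei cells, and 31.5% of cultured and 64.4% of naive C57BL/6 cells. Cultured cells also fell into a fibroblast- or mural-like cluster of 10 CAST/Ei and 42 C57BL/6 cells and into glia-like clusters of 26 CAST/Ei and 34 C57BL/6 cells. The remaining naive cells fell into 2 clusters that stayed unnamed because their markers pointed to more than 1 cell type: cluster 6, with 18 CAST/Ei and 16 C57BL/6 cells, and cluster 8, with 31 C57BL/6 cells whose neuron markers were as high as in neuron-like clusters but whose leading genes included Rgs5, a mural marker. No doublet caller was run, and capture of more than 1 cell at a site was not tested. Macrophages could not be fully checked, since only 2 of the 16 macrophage and immune markers, Cd68 and Cd14, are in the table. The sum of these 2 reached 4746 CPM in the highest cultured CAST/Ei neuron-like cell, where the median cell had 1.59 CPM. In the C57BL/6 cells of cluster 6 it reached 751 CPM, with a median of 0 CPM.

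B2m was the most widely detected of the genes. Each cell was thinned at random to 200000 reads, 42 shallower cells were left out, and a gene was called detected at 5 or more thinned reads. B2m was detected in 95.6% of cultured CAST/Ei cells, 92.6% of naive CAST/Ei cells, 98.97% of cultured C57BL/6 cells and 98.4% of naive C57BL/6 cells. Its level per cell had a median of 446.5 CPM (range 0 to 2416) in cultured CAST/Ei cells and 168.4 CPM (0 to 1869) in naive CAST/Ei cells. In C57BL/6 the median was 1069 CPM (8.49 to 3195) in cultured cells and 153.8 CPM (1.82 to 3278) in naive cells. The cultured medians were the higher ones in both strains, and the ranges of single cells overlapped. Per kilobase of exon, the summed level of B2m stood above those of the other 9 genes in all 4 groups. In cultured C57BL/6 cells it was 1492 CPM per kilobase, with Ifitm3 next at 1478, and in naive C57BL/6 cells it was 483 CPM per kilobase, with Ifitm3 next at 304.

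The heavy chain H2-K1 was detected in 33.3% of cultured CAST/Ei cells and 88.3% of naive CAST/Ei cells, and in 67.01% of cultured C57BL/6 cells and 56.5% of naive C57BL/6 cells. Its median per cell was 11.2 CPM (0 to 286) in cultured CAST/Ei cells and 86.4 CPM (0 to 541) in naive CAST/Ei cells. In C57BL/6 it was 47.5 CPM (0 to 854) in cultured cells and 30.3 CPM (0 to 4212) in naive cells. H2-K1 thus stood at opposite ends in the 2 CAST/Ei states, while the C57BL/6 states lay between them. In naive C57BL/6 cells the reads were concentrated, with 50.9% of all H2-K1 reads in 5 cells, while the top 5 naive CAST/Ei cells held 13.7%.

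Psmb8 was detected in 12.2% of cultured CAST/Ei cells, 38.7% of naive CAST/Ei cells, 56.7% of cultured C57BL/6 cells and 25% of naive C57BL/6 cells. Its median per cell was 0 CPM (0 to 1182) in cultured CAST/Ei cells and 13.8 CPM (0 to 499.6) in naive CAST/Ei cells, against 34.8 CPM (0 to 570.0) in cultured C57BL/6 cells and 4.51 CPM (0 to 1609) in naive C57BL/6 cells. Cultured cells were the lower ones in CAST/Ei and the higher ones in C57BL/6. A single cultured CAST/Ei cell held 44.8% of that group's Psmb8 reads, and the summed level of 19.3 CPM was 10.9 CPM without it.

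**Figure D1:**
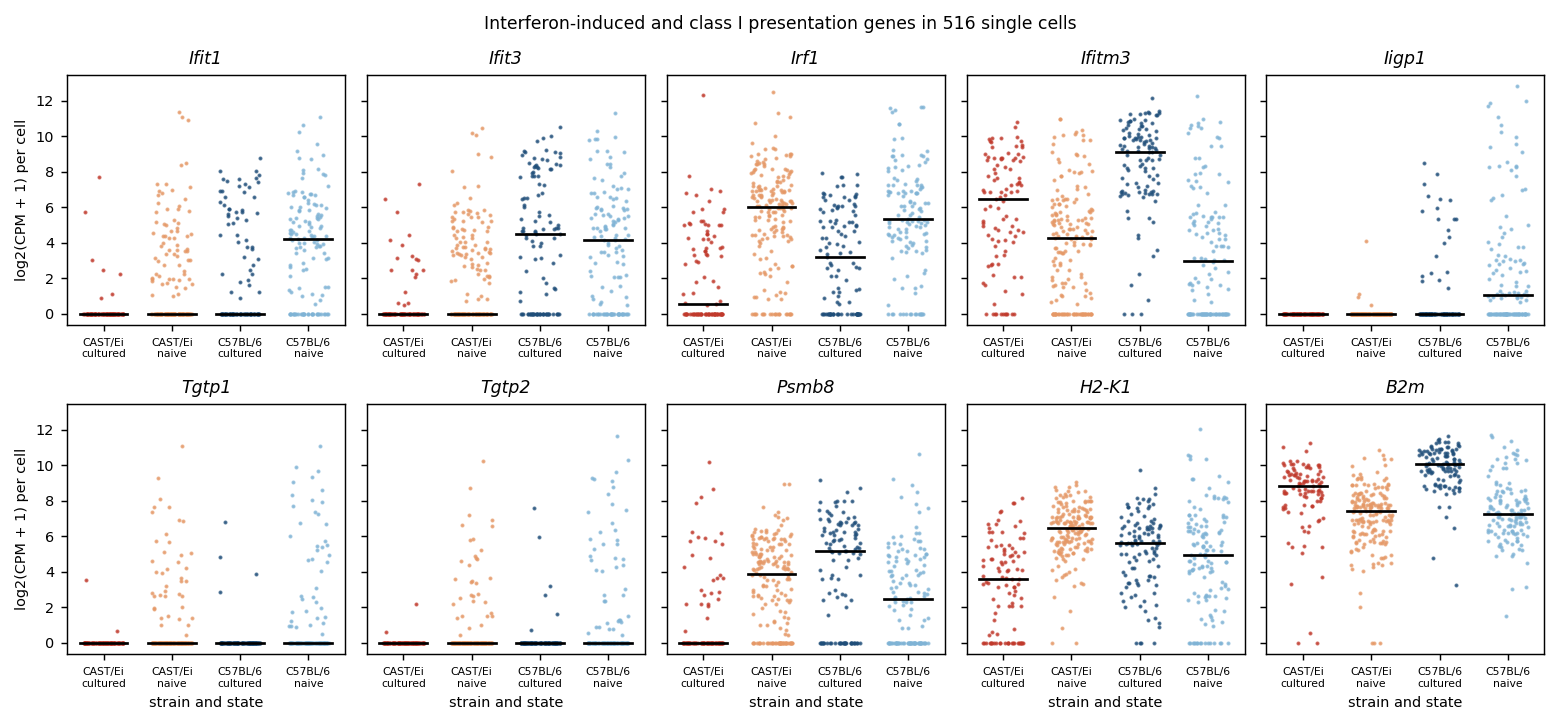
Each point is 1 cell and each panel 1 gene, with log2(CPM + 1) per cell on the y axis and the 4 groups on the x axis; bars are medians over all cells of a group. B2m and Ifitm3 shift upward in cultured cells of both strains, while Tgtp1, Tgtp2 and Iigp1 are at 0 in most cells of every group except Iigp1 in naive C57BL/6 cells, where 43.2% of cells have no read.

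Ifitm3 was detected in 66.7% of cultured CAST/Ei cells and 42.3% of naive CAST/Ei cells, and in 92.8% of cultured C57BL/6 cells and 36.3% of naive C57BL/6 cells. The median cell had 88.4 CPM (0 to 1787) and 18.2 CPM (0 to 2007) in cultured and naive CAST/Ei cells, and 549 CPM (0 to 4602) and 6.87 CPM (0 to 4849) in cultured and naive C57BL/6 cells. Most naive cells were low, with a few as high as any cultured cell.

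Irf1 ran the other way. It was detected in 23.3% of cultured CAST/Ei cells and 66.3% of naive CAST/Ei cells, and in 35.1% of cultured C57BL/6 cells and 66.9% of naive C57BL/6 cells. The median cell had 0.453 CPM (0 to 5043) in cultured CAST/Ei cells and 64.1 CPM (0 to 5784) in naive CAST/Ei cells, and 8.21 CPM (0 to 243) in cultured C57BL/6 cells and 38.96 CPM (0 to 3231) in naive C57BL/6 cells. Of the Irf1 reads of cultured CAST/Ei cells, 57.4% came from 1 neuron-like cell, without which the summed level was 12.99 CPM in place of 30.4 CPM.

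Ifit1 and Ifit3 both lie on chromosome 19, at chr19:34640871-34650009 and chr19:34583531-34588731. Ifit1 was detected in 2.22% of cultured CAST/Ei cells (interval 0.270% to 7.80%) and 15.3% of naive CAST/Ei cells (10.2% to 21.8%). In C57BL/6 it was detected in 30.9% of cultured cells (21.9% to 41.1%) and 41.9% of naive cells (33.1% to 51.1%). Ifit3 was detected in 5.56% of cultured CAST/Ei cells, 20.3% of naive CAST/Ei cells, 50.5% of cultured C57BL/6 cells and 41.9% of naive C57BL/6 cells. Both genes were thus seen in fewer cells of CAST/Ei than of C57BL/6 in either state, and the cultured CAST/Ei cells had the fewest. The median cell of cultured and naive CAST/Ei cells had no read of Ifit1 or Ifit3, while the highest cells had 206 CPM and 2644 CPM of Ifit1. In C57BL/6 the median cell had 0 CPM of Ifit1 (up to 431) in cultured cells and 17.1 CPM (up to 2126) in naive cells, and for Ifit3 21.4 CPM (up to 1459) and 16.6 CPM (up to 2530). Without thinning, Ifit1 was detected in 3.03% of cultured and 28.2% of naive CAST/Ei cells, and in 34.2% of cultured and 63.6% of naive C57BL/6 cells.

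The 3 immunity-related GTPases were the rarest signals. Tgtp1 was detected in 0 of 90 cultured CAST/Ei cells, which allows a share of up to 3.33% when 3 cells are taken as the limit of a count of 0, and in 9.82% of naive CAST/Ei cells. In C57BL/6 it was detected in 2.06% of cultured cells and 18.5% of naive cells, and Tgtp2 followed it closely with 0%, 7.98%, 2.06% and 16.9% of the same 4 groups. Single cells carried much of these sums: 1 cell held 55.2% of the Tgtp1 reads of naive CAST/Ei cells, and 1 cell held 70.1% of those of cultured C57BL/6 cells. Without the highest cell of each group, Tgtp1 summed to 0.00881 CPM in cultured CAST/Ei cells, 14.2 CPM in naive CAST/Ei cells, 0.689 CPM in cultured C57BL/6 cells and 54.5 CPM in naive C57BL/6 cells. The Tgtp2 sum of naive C57BL/6 cells was 86.7 CPM with and 56.4 CPM without its highest cell.

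Iigp1 split the strains more than any other of the 10 genes. No read fell on it in 99 cultured CAST/Ei cells, and 22 reads did in all naive CAST/Ei cells together, of which 19 were in 1 cell. In C57BL/6 it had 1909 reads over the cultured cells and 30513 reads over the naive cells. It was detected in 0% of naive CAST/Ei cells, which allows a share of up to 1.84%, against 20.97% of naive C57BL/6 cells (14.2% to 29.2%), and in 0 of 90 cultured CAST/Ei cells against 11.3% of cultured C57BL/6 cells. The naive CAST/Ei cell with the highest Tgtp1 level was in cluster 6, a cluster of naive cells, whose 18 CAST/Ei cells summed to 287.5 CPM of Tgtp1 and had no read of Iigp1. The 16 C57BL/6 cells of cluster 6 summed to 428 CPM of Tgtp1 and 1463 CPM of Iigp1. Whether reads of the CAST/Ei form of Iigp1 are lost against the reference genome was not tested.

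The comparison of culture with the naive state asks how 48 h after axotomy in a dish changes the cells. In C57BL/6, Ifitm3 and B2m were the higher ones in cultured cells, with summed levels of 1002 CPM against 206 CPM for Ifitm3 (log2 ratio of CPM + 1, 2.27) and 1284 CPM against 415 CPM for B2m (1.63). Tgtp1, Tgtp2, Iigp1, Irf1 and Ifit1 were lower, at 2.27 CPM in cultured against 74.7 CPM in naive cells for Tgtp1 (-4.53), 4.17 against 86.7 CPM for Tgtp2 (-4.08), 19.6 against 274 CPM for Iigp1 (-3.74), 35.3 against 279 CPM for Irf1 (-2.94) and 45.7 against 99.2 CPM for Ifit1 (-1.10). Ifit3 (185 against 137.7 CPM, 0.42), Psmb8 (68.03 against 40.9 CPM, 0.72) and H2-K1 (81.7 against 155.3 CPM, -0.92) moved by less than 2-fold. That made 2 of 10 genes at least 2-fold higher, where 23% of all 11251 genes were, and 5 of 10 at least 2-fold lower, where 20.5% were. The median of the 10 ratios was -1.01, and that of all genes was 0.12. Without its highest cell the Iigp1 sum of cultured C57BL/6 cells was 11.7 CPM, and the Tgtp2 sum was 1.36 CPM.

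In CAST/Ei the same 2 genes were at least 2-fold higher in cultured cells, Ifitm3 at 248 against 119.5 CPM (1.05) and B2m at 554 against 261 CPM (1.08), where 22.5% of all genes were. At least 2-fold lower were 6 of 10, where 18.7% of all genes were. Tgtp1 had 0.0352 against 31.4 CPM (-4.97), Tgtp2 0.0176 against 18.2 CPM (-4.24), Ifit1 3.75 against 65.6 CPM (-3.81) and Ifit3 4.55 against 48.2 CPM (-3.15). Irf1 had 30.4 CPM in cultured and 178 CPM in naive cells (-2.51), and H2-K1 26.8 and 102.9 CPM (-1.90). Psmb8 differed by less than 2-fold (19.3 against 25.1 CPM, -0.37), and by -1.05 without its highest cell in each group. Iigp1, with 0 reads in cultured and 22 in naive cells, was at least 4.78-fold lower against a floor of 3 reads in the group. Without the 1 naive cell that held 19 of the 22 reads, naive cells had 0.0173 CPM, which is under the floor of cultured cells, and no bound can be given. The median of the 10 ratios was -2.21, or -2.39 with Iigp1 at this bound, against 0.14 over all genes. Without its highest cell, Ifit1 in cultured CAST/Ei cells summed to 0.874 CPM and Ifit3 to 2.35 CPM.

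Scaling by the median ratio of all genes left 2 genes at least 2-fold higher in cultured C57BL/6 cells and 0 in cultured CAST/Ei cells, where Ifitm3 and B2m lay close to the 2-fold line. The median ratio of all genes was then 0.0 in C57BL/6 and -0.02 in CAST/Ei, and H2-K1 in C57BL/6 was past the 2-fold line (-1.04).

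Between the strains, all 10 genes were lower in CAST/Ei in both states when reads were summed over all cells. By the median naive cell, H2-K1 (86.4 against 30.3 CPM), Psmb8 (13.8 against 4.51 CPM) and Irf1 (64.1 against 38.96 CPM) were higher in CAST/Ei. So were Ifitm3 (18.2 against 6.87 CPM) and B2m (168.4 against 153.8 CPM). Ifit1, Ifit3 and Iigp1 were lower by that median, and Tgtp1 and Tgtp2 stood at 0 CPM in both strains. With the mean of per-cell CPM in place of the sum, Irf1 turned round among cultured cells (66.8 CPM in CAST/Ei against 33.3 CPM in C57BL/6), which rests on 1 CAST/Ei cell, without which the CAST/Ei mean was 15.97 CPM. Among naive cells the ratios of CAST/Ei over C57BL/6 ran from -7.93 for Iigp1 to -0.59 for Ifit1 and H2-K1, with a median of -0.73 against 0.04 over all genes. Iigp1 (0.126 against 274 CPM), Tgtp2 (18.2 against 86.7 CPM, -2.19), Ifit3 (48.2 against 137.7 CPM, -1.50) and Tgtp1 (31.4 against 74.7 CPM, -1.22) were at least 2-fold lower in CAST/Ei. These were 4 of 10, where 8.08% of all genes were at least 2-fold lower, and 0 of 10 were at least 2-fold higher, where 6.71% were.

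Among cultured cells 9 of 10 genes were at least 2-fold lower in CAST/Ei, where 11.9% of all genes were, and 0 of 10 were at least 2-fold higher, where 15.6% were. The ratio was -5.07 for Ifit3 (4.55 against 185 CPM), -3.30 for Ifit1 (3.75 against 45.7 CPM), -2.01 for Ifitm3 (248 against 1002 CPM) and -1.77 for Psmb8 (19.3 against 68.03 CPM). H2-K1 stood at 26.8 CPM in CAST/Ei and 81.7 CPM in C57BL/6 (-1.57) and B2m at 554 and 1284 CPM (-1.21). Irf1 had 30.4 CPM in CAST/Ei and 35.3 CPM in C57BL/6 (-0.21). Without 1 CAST/Ei cell Irf1 was at 12.99 CPM there (-1.38), past the 2-fold line, while Tgtp1 was no longer past it (-0.74) without its highest cell in each group. Iigp1 was at least 745-fold lower in CAST/Ei, and at least 444-fold without the highest C57BL/6 cell. The median of the 10 ratios was -1.89 against 0.04 over all genes, and it was also -1.89 with Iigp1 at its bound.

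The makeup of the groups differed between the strains too, since 63 cultured CAST/Ei cells (63.6%) and 35 cultured C57BL/6 cells (31.5%) were neuron-like. The cultured comparison was therefore repeated within classes. In glia-like cells 10 of 10 genes were at least 2-fold lower in CAST/Ei (median -2.17), where 16% of all genes were. These glia-like cells came from cluster 10 in CAST/Ei and mostly from cluster 9 in C57BL/6. In the fibroblast- or mural-like cluster 7 of 10 were at least 2-fold lower (median -1.37), where 19.9% were, with Ifit3 at 0.561 against 138.1 CPM and Ifit1 at 0 reads in 10 CAST/Ei cells against 51.9 CPM in 42 C57BL/6 cells. In neuron-like cells, drawn from clusters 1 and 5 apart from 1 cell in each strain, 5 of 10 were at least 2-fold lower (median -1.20), where 14.5% were, and 0 of 10 at least 2-fold higher, where 19.8% were. Ifit3 was at 3.82 against 87.3 CPM (-4.20), Ifit1 at 1.47 against 25.1 CPM (-3.40) and Psmb8 at 9.85 against 49.1 CPM (-2.21), while B2m was at 464 against 918 CPM (-0.98). Irf1 was at 42.97 against 23.1 CPM in neuron-like cells (0.87), but 1 CAST/Ei cell held 70.8% of these reads, and without it the CAST/Ei level was 12.6 CPM (-0.82). Cluster 5 had a median of 4649 genes per cell, against 9039 in cluster 1. It held 29 CAST/Ei and 10 C57BL/6 cells. H2-K1 was at 11.8 CPM in CAST/Ei against 7.03 CPM in C57BL/6 in cluster 5, and at 30.1 against 61.7 CPM in cluster 1. Ifit1, Ifit3, Ifitm3, Psmb8 and B2m were lower in CAST/Ei in both clusters.

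**Figure D2:**
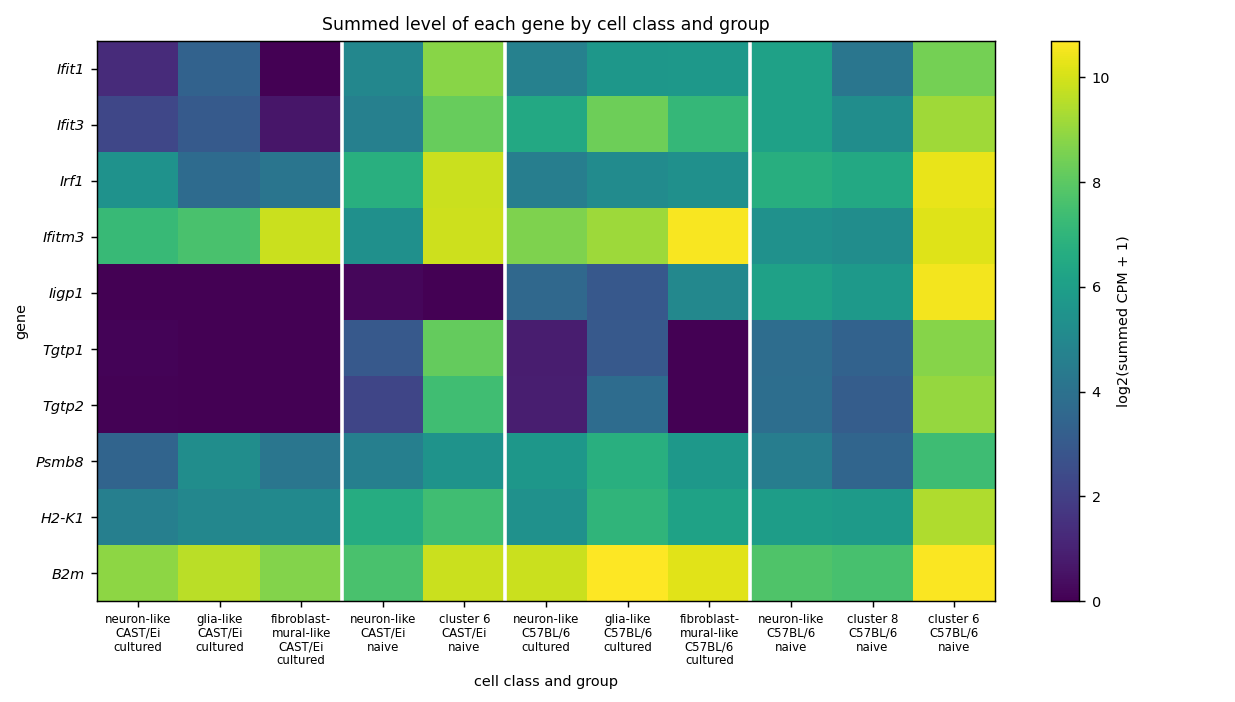
Colour gives log2(summed CPM + 1) for each gene (rows) in each cell class and group (columns), with white lines between the groups. Cluster 6 is bright for Ifit1, Ifit3, Irf1, Ifitm3, Tgtp1 and Tgtp2 in both strains and for Iigp1 in C57BL/6 alone, and Ifitm3 and B2m are bright across the cultured classes. These are sums, and the median CAST/Ei cell of cluster 6 had 0 CPM of Ifit1, Ifit3, Tgtp1 and Tgtp2.

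Cluster 6 held a large part of the signal in naive cells. Its 34 cells were all naive, and 3 of its 10 leading genes (Flt1, Slco1a4 and Eng) were endothelial markers. The leading genes were not limited to those clustered on, and Tgtp2, Iigp1 and Tgtp1 were among them too. Since the genes it was clustered on left out all 10 interferon and class I genes, the levels of these genes in it are described here. In C57BL/6 the 16 cells of cluster 6 held 88.1% of the Tgtp2 reads, 86.3% of the Tgtp1 reads, 83.3% of the Ifitm3 reads and 80.4% of the Iigp1 reads of all naive cells. They also held 69.8% of the Irf1 reads, 67.3% of the H2-K1 reads, 63.6% of the Ifit3 reads, 61.6% of the Psmb8 reads, 57.7% of the B2m reads and 54.1% of the Ifit1 reads. In CAST/Ei the 18 cells of cluster 6 held 81.2% of the Tgtp2, 79.9% of the Tgtp1 and 69.5% of the Ifitm3 reads of all naive cells, but 14.5% of the H2-K1 and 15.5% of the Psmb8 reads. Few cells made up the Tgtp1 and Tgtp2 sums there. The top 5 of the 18 cells held 99.4% of the cluster's reads of each gene, while 10 cells had no read of Tgtp1 and 11 none of Tgtp2. In C57BL/6 the top 5 of the 16 cells held 86.5% of the cluster's Tgtp1 reads, and 3 cells had none.

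Strain differences inside cluster 6 were uneven. H2-K1 summed to 170.97 CPM in its CAST/Ei cells against 694 CPM in its C57BL/6 cells (-2.02), and Psmb8 to 44.6 against 167.3 CPM (-1.88). Ifit1 was at 437 CPM in CAST/Ei and 356 CPM in C57BL/6 (0.29), and at 257.9 CPM in CAST/Ei without its highest cell (-0.46). Cell by cell Ifit1 was the lower one in CAST/Ei, with a median of 0 CPM against 98.4 CPM and detection in 33.3% against 73.3% of the thinned cells. Ifitm3 stood at 951 CPM in CAST/Ei and 1142 CPM in C57BL/6 (-0.26). Of the 10 genes 4 were at least 2-fold lower in CAST/Ei, where 23.1% of all genes were, in a comparison of 18 with 16 cells. By the markers and Ward groups given next, the makeup of these cells differed between the strains. Strain and makeup cannot be told apart in these ratios.

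Markers of other cell types moved with this cluster. Over its cells the 18 neuron markers summed to a median of 5331 CPM in CAST/Ei and 4579 CPM in C57BL/6, against 20718 and 19486 CPM in neuron-like naive cells, and none of these markers was without reads. All 17 endothelial markers of the table had reads in it, with sums per cell of 101.9 to 12846 CPM (median 1640.4) in CAST/Ei and 126.6 to 16362 CPM (median 5118.5) in C57BL/6, against medians of 99.4 and 69.1 CPM in neuron-like naive cells. The 16 glial markers summed to medians of 14517 CPM in CAST/Ei and 4669 CPM in C57BL/6, against 2147 and 1556 CPM in neuron-like naive cells. For the 12 fibroblast and mural markers the medians were 620 CPM in CAST/Ei and 10407 CPM in C57BL/6, against 92.3 and 61.5 CPM. The 17 early response genes that dissociation is known to induce summed to medians of 11577 CPM in CAST/Ei and 11699.5 CPM in C57BL/6, against 2119 and 2123 CPM in neuron-like naive cells. The part of each in the levels of the 10 genes was not tested. Grouped by Ward's method in place of Leiden clustering, the cells of cluster 6 parted into a glia-like cluster, which took 10 CAST/Ei and 5 C57BL/6 cells, and an endothelial-like cluster, which took 8 CAST/Ei and 10 C57BL/6 cells, while 1 C57BL/6 cell went to a neuron-like cluster.

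In neuron-like naive cells each of the genes except Iigp1 in CAST/Ei was present at a lower level than in cluster 6. As a share of the cluster 6 level, Tgtp1 stood at 2.41% in CAST/Ei and 3.07% in C57BL/6, Tgtp2 at 2.22% and 2.72%, Ifitm3 at 4.19% and 3.66%, and Iigp1 at 4.62% in C57BL/6. The 17 endothelial markers stood at 1.48% to 16.5% (median 6.02%) in CAST/Ei and 0.945% to 14.01% (median 4.33%) in C57BL/6. The GTPases and Ifitm3 thus lay within the range of the endothelial markers in neuron-like cells. Outside that range lay H2-K1 at 56.4%, Psmb8 at 52.2% and B2m at 21.5% in CAST/Ei, and Ifit1 at 19.1% in C57BL/6.

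The C57BL/6 comparison of cultured with naive cells depended on cluster 6. Without it the median of the 10 ratios was 0.11 in place of -1.01, against 0.19 over all genes, with 4 genes at least 2-fold higher, where 27.6% of all genes were, and 4 at least 2-fold lower, where 20.5% were. Ifit3 (1.63) and Psmb8 (1.83) joined Ifitm3 (4.59) and B2m (2.63) among the higher ones, while Irf1 (-1.46), Iigp1 (-1.64), Tgtp1 (-2.0) and Tgtp2 (-1.34) stayed lower. H2-K1 changed sign, with 0.44. In CAST/Ei the median without cluster 6 was -1.80, against 0.18 over all genes, with 2 genes at least 2-fold higher, where 25.3% of all genes were, and 6 at least 2-fold lower, where 18.5% were. The naive strain comparison without cluster 6 had a median of -0.39, against 0.06 over all genes. In it Ifit3 (-1.23), Tgtp2 (-1.46) and Iigp1 (-5.82) were at least 2-fold lower in CAST/Ei, where 6.2% of all genes were, and 0 of 10 were at least 2-fold higher, where 7.23% were, while Irf1 (0.11), Psmb8 (0.32) and H2-K1 (0.68) were the higher ones in CAST/Ei.

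Within neuron-like cells alone, Ifitm3 was at 394 CPM in cultured and 41.8 CPM in naive C57BL/6 cells (3.21) and at 146.7 and 39.9 CPM in CAST/Ei (1.85), and B2m at 918 and 214 CPM (2.10) and at 464 and 198 CPM (1.22). Psmb8 was at 49.1 CPM in cultured against 21.8 CPM in naive C57BL/6 cells (1.13) and at 9.85 against 23.3 CPM in CAST/Ei (-1.16). At least 2-fold higher were 3 of 10 genes in C57BL/6 and 2 of 10 in CAST/Ei, where 22.1% and 23% of all genes were. At least 2-fold lower were 5 of 10 in C57BL/6 and 7 of 10 in CAST/Ei, where 22% and 22.5% were. Naive neuron-like cells came from clusters 2, 4, 7 and 11 to 15, so different clusters held the 2 states. Between strains, naive neuron-like cells had H2-K1 at 96.4 CPM in CAST/Ei and 61.5 CPM in C57BL/6 (0.64), Ifit1 at 30.1 and 68.2 CPM (-1.16) and Ifit3 at 24.5 and 68.01 CPM (-1.43). Among them 4 of 10 genes were at least 2-fold lower in CAST/Ei, where 6.39% of all genes were, and 0 of 10 at least 2-fold higher, where 8.31% were. The naive C57BL/6 cells counted as neuron-like leave out the 31 cells of cluster 8, which Ward's method put in neuron-like clusters. With cluster 8 counted in, the naive strain comparison is the one given above without cluster 6.

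A cell was said to carry the interferon signal when at least 2 of 4 units were detected in it, the units being Ifit1, Ifit3, Iigp1, and Tgtp1 or Tgtp2. Of cultured CAST/Ei cells 1 of 90 carried it (1.11%, interval 0.0281% to 6.04%), and of naive CAST/Ei cells 16 did (9.82%, 5.72% to 15.5%). Of cultured C57BL/6 cells 28 of 97 carried it (28.9%, 20.1% to 38.9%), and of naive C57BL/6 cells 43 did (34.7%, 26.4% to 43.7%). These exact binomial intervals cover counting error only. With Iigp1 left out, since it has almost no reads in CAST/Ei, the shares were 1.11%, 9.82%, 27.8% and 29.8% in the same order. All 4 units were detected in 15 naive C57BL/6 cells and in no cell of the other 3 groups, 2 of which are CAST/Ei groups in which Iigp1 was not detected.

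The units came together in different mixtures. Among the 28 carrying cultured C57BL/6 cells, 15 had Ifit1 and Ifit3 alone, 10 had Ifit1, Ifit3 and Iigp1, and 2 had Ifit1, Ifit3 and Tgtp1 or Tgtp2. Among the 43 carrying naive C57BL/6 cells, 15 had all 4 units and 14 had Ifit1 and Ifit3 alone. Among the 16 carrying naive CAST/Ei cells, 7 had Ifit1 and Ifit3 alone, and 9 had Tgtp1 or Tgtp2 with 1 or both of them. Tgtp1 or Tgtp2 was thus detected in 2 of the 28 carrying cultured C57BL/6 cells and in 9 of the 16 carrying naive CAST/Ei cells.

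**Figure D3:**
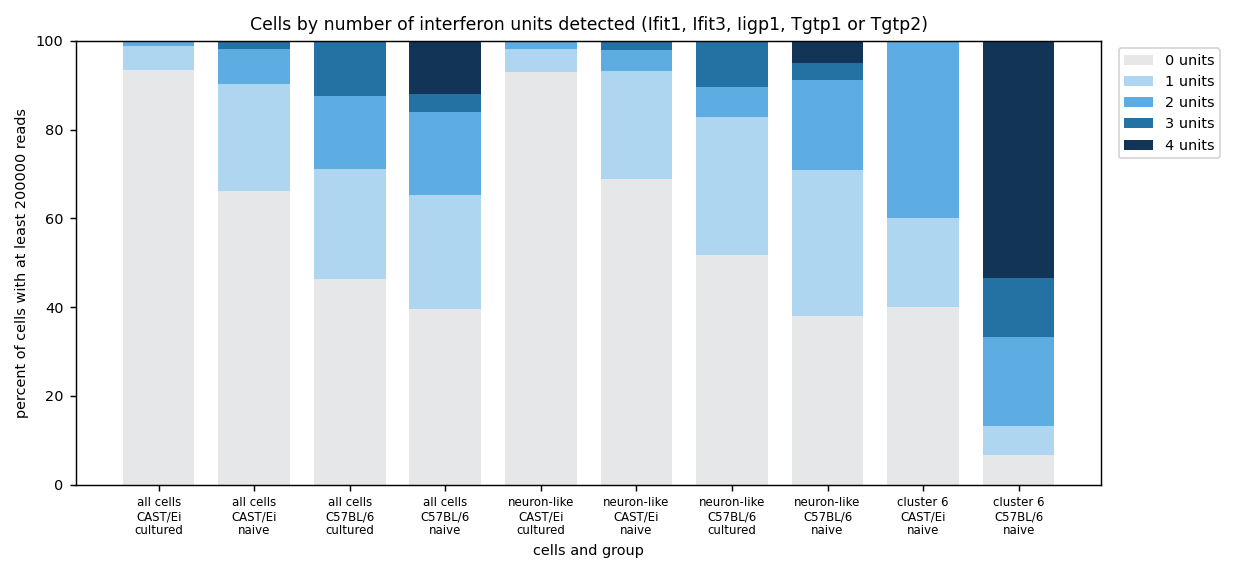
Stacked bars give the percent of cells with at least 200000 reads in which 0 to 4 of the units Ifit1, Ifit3, Iigp1 and Tgtp1 or Tgtp2 were detected, for all cells, neuron-like cells and cluster 6 of each group. Cells with all 4 units appear in naive C57BL/6 cells alone, 15 in number, of which 8 lie in cluster 6.

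By class, 13 of 15 naive C57BL/6 cells of cluster 6 carried the signal (86.7%, 59.5% to 98.3%) and 6 of 15 naive CAST/Ei cells of it (interval 16.3% to 67.7%). Strain and the makeup of cluster 6 cannot be told apart in these shares. Of neuron-like cells 1 cultured CAST/Ei cell (1.75%), 10 naive CAST/Ei cells (6.76%), 5 cultured C57BL/6 cells (17.2%) and 23 naive C57BL/6 cells (29.1%) carried it. In cultured C57BL/6 cells it was carried by 12 of 38 fibroblast- or mural-like cells (31.6%) and 11 of 30 glia-like cells (36.7%), while in cultured CAST/Ei cells 0 of 9 and 0 of 24 such cells carried it, which allows shares of up to 33.3% and 12.5%. Cluster 8 had 7 carrying cells of 30 (23.3%). Without cluster 6 the shares of naive cells were 6.76% in CAST/Ei and 27.5% in C57BL/6, where the cells of cluster 8 are counted with the neuron-like ones.

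Endothelial markers and the signal were cross-counted within naive cells. The 17 markers include Ly6a, Ly6c1 and Ly6e, and whether these genes themselves follow interferon was not tested. Of the cells with at least 3 of 17 endothelial markers detected, 9 of 55 CAST/Ei cells (16.4%) and 23 of 36 C57BL/6 cells (63.9%) carried the signal. Of those with fewer, 7 CAST/Ei cells (6.48%) and 20 C57BL/6 cells (22.7%) carried it. In CAST/Ei 48 cells and in C57BL/6 34 cells lay within 1 marker of this limit. With at least 5 markers, 8 of 33 CAST/Ei cells (24.2%) and 17 of 19 C57BL/6 cells (89.5%) carried it, against 8 CAST/Ei cells (6.15%) and 26 C57BL/6 cells (24.8%) with fewer. So 26 of the 43 carrying C57BL/6 cells had fewer than 5 endothelial markers detected. The share was lower in CAST/Ei on both sides of each limit.

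**Figure D4:**
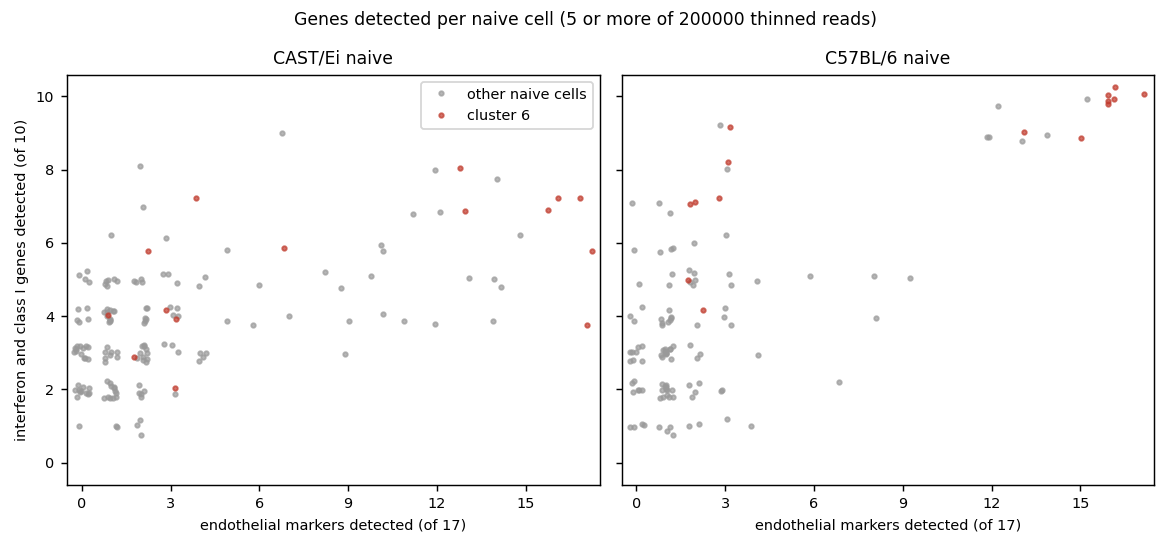
Each point is 1 naive cell thinned to 200000 reads, with the number of 17 endothelial markers detected on the x axis and the number of the 10 interferon and class I genes detected on the y axis, both spread slightly around whole numbers. In C57BL/6 the 8 cells with all 10 genes also have many endothelial markers, while in CAST/Ei, where Iigp1 was not detected in any cell and 9 is the most a cell could reach, the highest cells have 9.

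Of the 10 genes, the median cell had 2 detected in cultured CAST/Ei cells (range 0 to 6), 4 in naive CAST/Ei cells (1 to 9), 4 in cultured C57BL/6 cells (1 to 9) and 3.5 in naive C57BL/6 cells (1 to 10). At least 8 of the 10 were detected in 0, 5, 5 and 18 cells of these groups. All 10 genes were detected in 8 naive C57BL/6 cells, a count that no CAST/Ei cell could reach, since Iigp1 was not detected in them.

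Co-expression was described for the 45 pairs of the 10 genes, over cells thinned to the same depth, which share libraries of 1 group. In naive C57BL/6 cells 44 of 45 pairs were detected together more often than the product of their shares gives. Of these, 20 reached at least 1.5 times the product. B2m was detected in 98.4% of naive C57BL/6 and 92.6% of naive CAST/Ei cells. Its pairs can therefore hardly exceed the product, and counting them as more often says little. The median Spearman rho in naive C57BL/6 cells was 0.44 (0.18 to 0.89). Without cluster 6, 42 of 45 pairs were together more often and 17 reached at least 1.5 times the product. The median rho was then 0.29 (0.02 to 0.81). In naive CAST/Ei cells the median rho was 0.19 (-0.15 to 0.85) over the 36 pairs without Iigp1. Of the 36 pairs with at least 1 cell expected, 33 were together more often, and 10 reached at least 1.5 times the product. In cultured cells the median rho was 0.12 in CAST/Ei and 0.22 in C57BL/6. Genes were thus most closely tied in naive C57BL/6 cells, and less so once cluster 6 was left out.

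Ifit1 and Ifit3 were detected together in 10 naive CAST/Ei cells, where 5.06 would come from the shares (rho 0.09), in 27 cultured C57BL/6 cells, where 15.2 would (0.59), and in 32 naive C57BL/6 cells, where 21.8 would (0.44). In C57BL/6 culture, 27 of the 30 cells with Ifit1 also had Ifit3. Iigp1 and Tgtp1 were together in 19 of the 26 naive C57BL/6 cells with Iigp1, where 4.82 would come from the shares (0.61). In cultured C57BL/6 cells Iigp1 was detected in 11 cells, Tgtp1 in 2 and both in 0, where 0.227 would come from the shares. These are too few cells to show whether the 2 genes went together in culture. The closely similar Tgtp1 and Tgtp2 had rho of 0.85 in naive CAST/Ei and 0.89 in naive C57BL/6 cells, and the split of reads between them is uncertain. Among the class I genes, H2-K1 and B2m had rho of 0.07 in cultured and 0.00 in naive CAST/Ei cells, and 0.40 in cultured and 0.62 in naive C57BL/6 cells. Ifitm3 and B2m had 0.51 in naive CAST/Ei and 0.69 in naive C57BL/6 cells, and 0.36 and 0.53 without cluster 6.

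**Figure D5:**
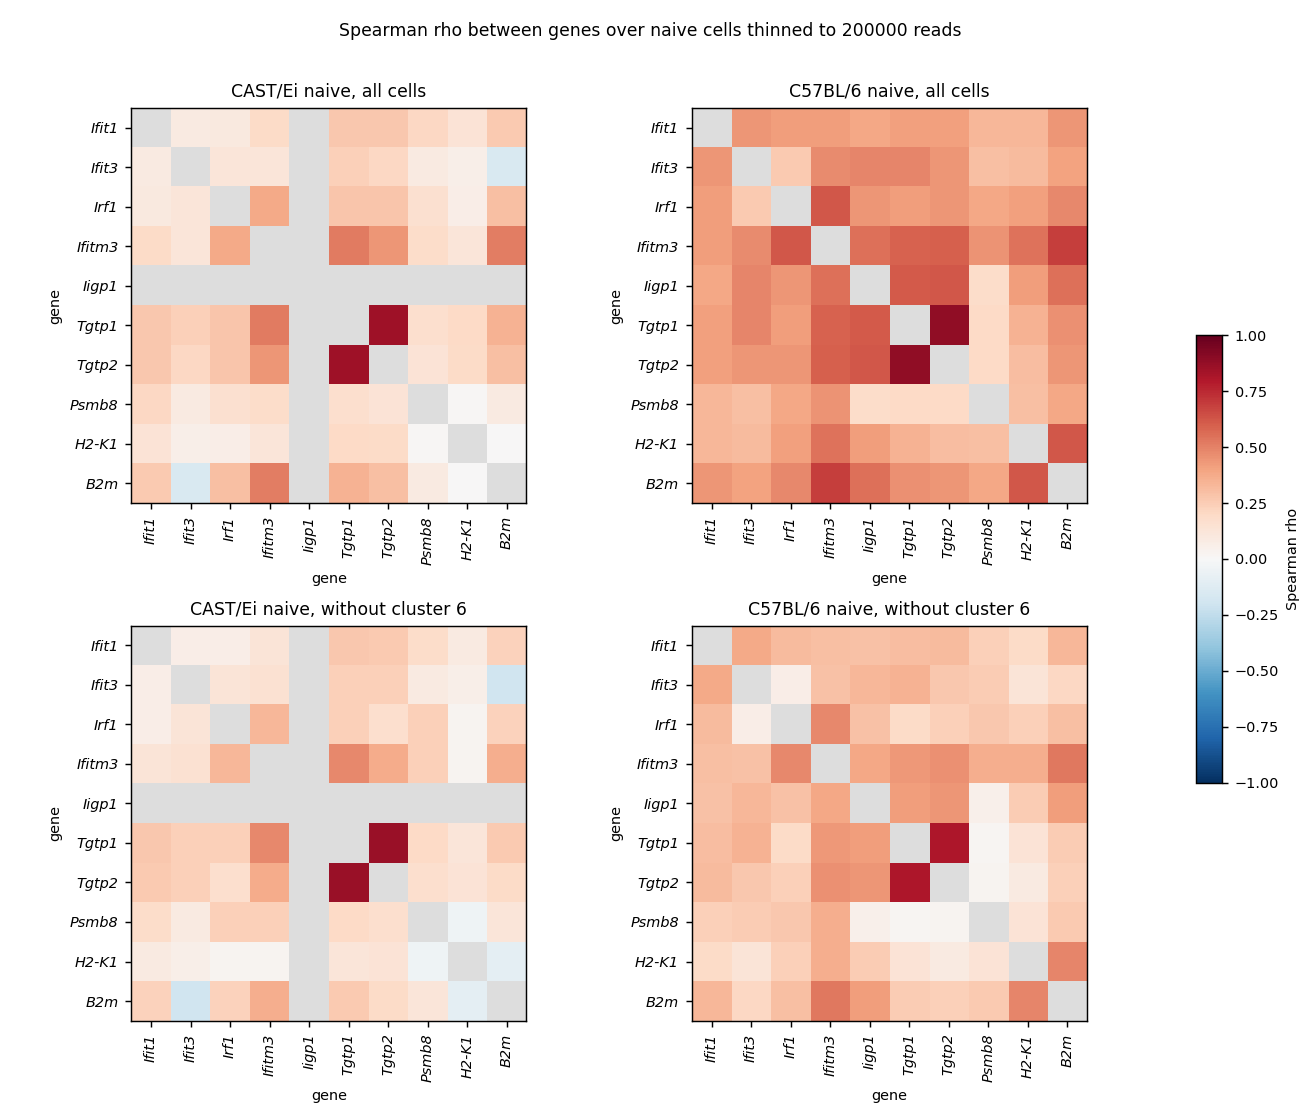
Colour gives Spearman rho between each pair of the 10 genes over naive cells thinned to 200000 reads, for CAST/Ei (left) and C57BL/6 (right), with all cells in the top row and without cluster 6 in the bottom row; grey marks the diagonal and the pairs with Iigp1 in CAST/Ei, where no thinned read varied. All 45 pairs are positive in C57BL/6 (median 0.44, and 0.29 without cluster 6), and in CAST/Ei Tgtp1 with Tgtp2 stands out at 0.85.

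Genes most like the mean of Ifit1, Ifit3, Iigp1, Tgtp1 and Tgtp2 over single naive cells were ranked by the lower of the 2 strains' Spearman rho, over all naive cells of each strain. First came I830012O16Rik (0.67 and 0.64), that is Ifit3b, whose sequence overlaps that of Ifit3, a part of this mean; the part of shared reads in its rank was not tested. Then came Gimap6 (0.46 and 0.47), Samd9l (0.46 and 0.47) and Ifitm2 (0.45 and 0.45). The next were Emcn (0.44 and 0.48), Eng (0.47 and 0.43), Kdr (0.44 and 0.43) and Slco1a4 (0.43 and 0.52), which are 4 of the endothelial markers, then Rhoj and Cd93. For the mean of Psmb8, H2-K1 and B2m the first were Gng11 (0.43 and 0.46), Ier3 (0.42 and 0.53), an early response gene, and Ifitm2 (0.40 and 0.54).

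Other genes of the pathway were described by list, with log2 ratios as above. These are from sums over all cells, cluster 6 included, and no list ratios without it are given here. No interferon ligand gene has a row in the table, in which every gene has a read in at least 60 cells. Of the 16 receptor and signalling genes, 2 stood at least 2-fold higher and 2 lower in cultured than in naive C57BL/6 cells, where 23% and 20.5% of all genes were, and in CAST/Ei 3 stood higher and 2 lower, where 22.5% and 18.7% were. Ifngr1, a subunit of the interferon gamma receptor, was at 79.4 CPM in cultured against 22.3 CPM in naive C57BL/6 cells (1.79) and at 47.9 against 36.6 CPM in CAST/Ei (0.38). Irf7, a factor of the type I response, was at 2.67 CPM in CAST/Ei and 18.2 CPM in C57BL/6 among naive cells (-2.39).

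The 9 other interferon-induced GTPases went in the direction of the Tgtp genes, apart from Gbp3 (0.73) and Gbp7 (0.31) in cultured over naive C57BL/6 cells. In cultured cells 8 of 9 were at least 2-fold lower than in naive cells in CAST/Ei (median -2.39), where 18.7% of all genes were, and 5 of 9 in C57BL/6 (median -1.08), where 20.5% were. Between strains 9 of 9 were at least 2-fold lower in CAST/Ei among cultured cells (median -2.80), where 11.9% of all genes were, and 6 of 9 among naive cells (median -1.23), where 8.08% were. Ifi47 was at 0.0440 CPM in cultured CAST/Ei cells, 26.3 CPM in naive CAST/Ei cells, 27.9 CPM in cultured C57BL/6 cells and 63.3 CPM in naive C57BL/6 cells. Gbp6, a guanylate-binding protein, was at 0.0527, 12.99, 25.2 and 38.5 CPM in the same groups.

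For 41 other interferon-induced genes the strains were set against each other, CAST/Ei over C57BL/6. Past the 2-fold line on the lower side lay 26 of them among cultured cells, with 3 on the higher side (median -1.66), where 11.9% and 15.6% of all genes were. Among naive cells 12 lay on the lower and 5 on the higher side (median -0.48), where 8.08% and 6.71% were. Ifit3b, not matched to the list by its symbol, was at 3.60 CPM in cultured CAST/Ei cells, 27.7 CPM in naive CAST/Ei cells, 118.2 CPM in cultured C57BL/6 cells and 54.5 CPM in naive C57BL/6 cells. Usp18, which dampens type I signalling, was at 1.06 CPM in cultured CAST/Ei against 50.3 CPM in cultured C57BL/6 cells (-4.64), and Oasl2 at 4.64 against 80.3 CPM (-3.85). Mx2, an antiviral GTPase, ran against the list among naive cells, with 102.96 CPM in CAST/Ei against 17.6 CPM in C57BL/6 (2.48), as did Trim21 with 15.2 against 1.45 CPM (2.73). Cultured against naive cells, 4 of the 41 lay at least 2-fold up and 19 at least 2-fold down in CAST/Ei (median -0.73), where 22.5% and 18.7% of all genes lay. In C57BL/6 11 lay up and 7 down (median 0.16), close to the 23% and 20.5% of all genes. Ifi204, a DNA sensor, was at 83.8 CPM in cultured against 4.09 CPM in naive C57BL/6 cells (4.06), while Rsad2, an antiviral enzyme, was at 7.42 against 58.95 CPM (-2.83). Cxcl10, a chemokine that draws T cells, was at 17.4 CPM in CAST/Ei and 85.4 CPM in C57BL/6 among naive cells (-2.23).

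Cultured cells had 3 of 23 other class I presentation genes at least 2-fold above and 11 at least 2-fold below naive cells in CAST/Ei (median -0.72), where 22.5% and 18.7% of all genes lay, and 4 above and 4 below in C57BL/6 (median 0.03), close to the 23% and 20.5% of all genes. Tap1, part of the peptide transporter, was at 2.27 CPM in cultured and 24.8 CPM in naive CAST/Ei cells (-2.98), and at 8.92 and 8.69 CPM in C57BL/6 (0.03). H2-T24, a nonclassical class I gene, was at 3.41 CPM in CAST/Ei against 75.4 CPM in C57BL/6 among naive cells (-4.11). None of 8 subunits of the constitutive proteasome differed by 2-fold in any of the 4 comparisons, with medians of -0.27 to 0.16.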

How the data were processed

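The authors deposited raw counts, whole numbers of reads per gene and cell, in 1 table of 11251 genes by 516 cells, and each column was matched to its sample by title. Bowtie2, SAMtools and the build mm10 are named per the submitters' processing notes. mm10 is the genome of C57BL/6, and loss of CAST/Ei reads against it was not tested. How reads were counted, with which annotation and filters, is not given in the sources used here. No pair of cells had identical counts, 0 columns were left unused, and cells held 13932 to 2978345 reads.

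Groups were taken from the strain and treatment labels: 99 cultured CAST/Ei, 174 naive CAST/Ei, 111 cultured C57BL/6 and 132 naive C57BL/6 cells, of which 90, 163, 97 and 124 had at least 200000 reads. Since the labels name no animal or culture, spread between cells may be technical and no test was run. From the counts, reads were summed per group and divided by the group total (CPM), and log2 ratios used a pseudocount of 1 CPM. Detection used cells thinned to 200000 reads with a fixed seed, and at least 5 thinned reads. Intervals are exact Poisson or Clopper-Pearson (95%). Cells were clustered with scanpy 1.11.5 and leidenalg 0.10.2 on log2(CPM + 1) of 2000 variable genes, with 99 interferon and presentation genes left out, 20 principal components, 15 neighbours and resolution 1. A cluster was named from marker lists, and stayed unnamed where its leading genes went against the name. No doublet caller was run. The steps were tested on simulated data. The 10 genes and all lists were chosen with earlier results of these data known. Beside the 10 genes, list genes with the largest ratios in each comparison were named among those with at least 10 CPM in either group, and the genes most like the 10 by rank correlation. Alternatives were other pseudocounts, scaling, per-cell means, depth limits, detection limits, classes, clusterings and single cells left out, the last chosen after seeing the data. Loci are from GENCODE M21 and promoters from RefSeq on GRCm38.p6. Python 3.11.15, numpy 2.4.6, pandas 2.3.3 and scipy 1.17.1 were used.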

Additional observations from a re-analysis of the deposited data

Results flagged for a closer look

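In sums over all cells, 2 of the 10 genes lay on opposite sides of 0 when cultured cells were set against naive cells in the 2 strains. The log2 ratio of Ifit3 was -3.15 in CAST/Ei and 0.42 in C57BL/6, and that of Psmb8 was -0.37 in CAST/Ei and 0.72 in C57BL/6. With 1 sample per group the difference between the strains was not tested. Within neuron-like cells alone Ifit3 was at -2.41 in CAST/Ei and 0.35 in C57BL/6, and Psmb8 at -1.16 and 1.13. Without cluster 6 Ifit3 was at -2.20 in CAST/Ei and 1.63 in C57BL/6. The Psmb8 level of cultured CAST/Ei cells rests in part on 1 cell, with 19.3 CPM with it and 10.9 CPM without it.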

How the results depend on the processing

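No paired analysis was possible because the numbers in the labels count cells within a group and pair none across groups. Among the values of the main comparisons and shares under other settings, 28 moved and 1 was counted as changing sign: the median ratio of cultured over naive C57BL/6 cells, 0.11 without cluster 6, with 4 genes at least 2-fold higher. Ratios of single genes changed sign as well, as given above. Among them were H2-K1 in cultured over naive C57BL/6 cells, and Irf1, Psmb8 and H2-K1 between naive strains, all without cluster 6. Irf1 between cultured strains did so with per-cell means. Without 1 cell, so did Irf1 between strains in cultured neuron-like cells and Ifit1 between strains in cluster 6. For cultured over naive CAST/Ei cells, a pseudocount of 10 CPM gave a median of -1.56, and the number of genes at least 2-fold higher was 1 with that pseudocount, 1 with the mean of per-cell CPM and 0 with median-of-ratios scaling. In neuron-like cells the cultured strain median was -1.20 and 5 genes were at least 2-fold lower in CAST/Ei, and cluster 8, which holds naive cells, cannot change these values. The share of cells carrying the signal depended on the detection limit. In naive CAST/Ei, cultured C57BL/6 and naive C57BL/6 cells it was 25.2%, 41.2% and 64.5% at 1 thinned read, 4.91%, 13.4% and 16.1% at 20 thinned reads, and 1.84%, 12.4% and 16.1% with at least 3 of 4 units. In cultured CAST/Ei cells it was 0% at 20 thinned reads, at 100000 reads and with at least 3 units. It was 19.05% in naive C57BL/6 cells at 100000 reads, 17.2% in naive CAST/Ei and 53.8% in naive C57BL/6 cells without thinning, and 17.2% in cultured C57BL/6 cells of neuron-like clusters. At 1 thinned read, 20 pairs of genes in cultured CAST/Ei cells were together more often than from the shares, against 12. Among naive C57BL/6 cells, 100% of those in the Ward endothelial-like cluster carried the signal, and 89.5% of those with at least 5 endothelial markers. The C57BL/6 share stood above the CAST/Ei share of the same state under each of these settings. The cause of these moves was not tested. The number of cells limits what a share of 0 means.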

Other observations

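The naive neuron-like clusters, which gather kinds of sensory neuron, differed in how much of the signal they held. Cluster 4, whose leading genes include Tac1, the precursor of substance P, and Trpv1, the capsaicin and heat receptor, summed to 116.7 CPM of Ifit1 in 27 CAST/Ei cells and 130.6 CPM in 23 C57BL/6 cells. In each strain 1 cell held over 50% of these reads, and without it the sums were 31.7 CPM in CAST/Ei and 66.5 CPM in C57BL/6. In it 4 of 26 CAST/Ei cells and 8 of 22 C57BL/6 cells carried the signal. Mrgprd, a receptor of nonpeptidergic nociceptors, was among the leading genes of cluster 7 in CAST/Ei and of cluster 12 in C57BL/6. These summed to 12.4 CPM of Ifit1 in 33 CAST/Ei cells and 51.6 CPM in 26 C57BL/6 cells, or 6.66 and 40.3 CPM without the highest cell, with 1 of 29 and 6 of 24 cells carrying the signal. Tgtp1 was at 4.53 CPM in cluster 7 and had no read in cluster 12, while Ifitm3 was at 14.5 and 6.56 CPM. Cluster 14, led by Sst and Nppb, which mark itch neurons, had 0 of 12 carrying CAST/Ei cells and 3 of 6 carrying C57BL/6 cells. The endothelial markers averaged 2.08 on the log2(CPM + 1) scale in cluster 4, 0.75 in cluster 7 and 0.54 in cluster 12, and their part in these levels was not tested.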
